A study of Mus musculus with 2 samples.

Results

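Lectin-like receptors that natural killer (NK) cells share with T cells were measured in CD8+ tumor-infiltrating lymphocytes (TIL) from lean and obese mice. The 10 genes, Klrc1, Klrc2, Klrd1, Klrk1, Klre1, Klrg1, Klra7, Klra6, Klra1 and Klra9, were taken by symbol from the 32285 features of the series. They were listed with earlier results of these data known, so the list is not independent of the values below. The study compared anti-tumor T cells of mice kept lean on normal chow (NC) with those of mice made obese on a western diet (WD). All mice were male C57BL/6 animals of 16 weeks that carried a transplanted tumor of B16 F0, a melanoma cell line of that strain. CD8+ cells were enriched on magnetic beads, sorted by CD8 staining and made into droplet-based 3′ libraries, 1 from lean and 1 from obese mice. The number of mice behind each library was not given in the sources used here. With 1 library per group no test between groups was possible. Every interval below is a 95% interval for counting error only, and a difference between the libraries cannot be told apart from a difference between animals, tumors or preparations.

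Klrc1 (NKG2A) and Klrc2 (NKG2C) each reach the cell surface in a pair with Klrd1 (CD94). The NKG2A pair carries inhibitory motifs, the NKG2C pair signals through an adaptor, and both bind the nonclassical class I molecule Qa-1b, encoded by H2-T23. Klrk1 (NKG2D) is a costimulatory receptor for stress-induced ligands on tumor cells and signals through the adaptor Hcst (DAP10). Klre1 forms pairs with Klri1 or Klri2, and Klrg1 is an inhibitory receptor for cadherins found on late effector cells. Klra1 (Ly49A), Klra6 (Ly49F), Klra7 (Ly49G) and Klra9 (Ly49I) encode inhibitory Ly49 receptors for class I molecules. They are best known from NK cells, and in mice a subset of CD8+ T cells carries them too.

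All 10 genes lay on chromosome 6 of the GRCm38 build, and 9 of them within chr6:129577905-130386874, the NK gene complex, with only Klrg1 apart at chr6:122270596-122282882. On this stretch Klre1 and Klrd1 were on the plus strand, followed on the minus strand by Klrk1, Klrc2, Klrc1, Klra6, Klra9, Klra7 and Klra1. The bases just before the start sites of 5 members are shown because these neighbors were highest in different groups of cells, as described below. The sequences are from RefSeq (GRCm38.p6), 5′ to 3′ on the minus strand, 250 bases each, and 8 of the 10 members had an entry (Klrd1 and Klrg1 had none). In Klrk1 and Klrc1 the capitals mark the RUNX letters TGTGGT or their reverse complement ACCACA, which 16.8% of all 32851 windows of 300 bases (250 before to 50 after a start) held. In the Ly49 genes the capitals mark the longest run of letters common to all 3, which is 18 bases long.
Klrk1, chr6:129623865-129624114: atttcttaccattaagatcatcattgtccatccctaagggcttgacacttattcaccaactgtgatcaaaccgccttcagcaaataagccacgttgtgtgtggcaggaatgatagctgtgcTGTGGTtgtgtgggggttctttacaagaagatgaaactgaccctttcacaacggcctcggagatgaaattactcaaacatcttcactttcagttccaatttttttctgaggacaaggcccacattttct
Klrc1, chr6:129678974-129679223: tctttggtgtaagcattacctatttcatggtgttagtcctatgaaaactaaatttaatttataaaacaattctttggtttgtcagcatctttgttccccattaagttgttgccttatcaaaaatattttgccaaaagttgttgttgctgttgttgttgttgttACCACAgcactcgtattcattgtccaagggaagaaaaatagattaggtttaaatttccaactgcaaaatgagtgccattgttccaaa
Klra6, chr6:130026955-130027204: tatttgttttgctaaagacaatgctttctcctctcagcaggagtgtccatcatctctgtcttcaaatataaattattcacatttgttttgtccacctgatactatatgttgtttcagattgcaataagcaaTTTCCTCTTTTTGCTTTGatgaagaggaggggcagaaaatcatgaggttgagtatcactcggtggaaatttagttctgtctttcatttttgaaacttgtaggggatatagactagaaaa
Klra9, chr6:130193113-130193362: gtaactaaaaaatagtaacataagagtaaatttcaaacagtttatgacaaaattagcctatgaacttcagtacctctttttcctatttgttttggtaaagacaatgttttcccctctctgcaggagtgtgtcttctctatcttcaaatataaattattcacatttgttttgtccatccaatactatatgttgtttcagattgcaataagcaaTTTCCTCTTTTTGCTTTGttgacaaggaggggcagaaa
Klra7, chr6:130233323-130233572: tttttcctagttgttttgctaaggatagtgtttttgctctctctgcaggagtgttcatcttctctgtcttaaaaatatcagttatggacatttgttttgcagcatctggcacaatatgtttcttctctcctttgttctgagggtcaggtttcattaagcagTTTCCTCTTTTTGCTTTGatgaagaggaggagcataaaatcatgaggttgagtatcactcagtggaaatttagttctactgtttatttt
The windows of 300 bases of Klra6 and Klra9 were identical at 93.1% of 217 aligned bases, those of Klra6 and Klra7 at 83.7% of 270, and those of Klrc1 and Klrc2 at 51.1% of 284. The window of Klra1, the remaining Ly49 member, was less alike, at 48.4% of 289 with Klra6, 55.0% of 278 with Klra9 and 47.9% of 284 with Klra7. For comparison, pairs of Klrk1, Klrc2 or Klrc1 with a Ly49 window ran from 51.4% (Klrc1 with Klra1) to 60.3% (Klrc2 with Klra9). The values of Klra1 with the other Ly49 windows and of Klrc1 with Klrc2 were not above this range. No window of Klra6, Klra9 or Klra7 held the RUNX letters, the T-box letters TCACAC or the AP-1 letters TGANTCA on either strand. Besides Klrk1 and Klrc1, windows of Klre1, Klrc2 and the Ly49 gene Klra1 held the RUNX letters. Matches to the T-box letters stood in windows of Klre1 and Klra1 (14.5% of all windows) and matches to AP-1 in those of Klrk1, just after its start, and Klrc2 (7.81% of all windows). None of the 3 sets of letters overlapped another here.

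After filters with the limits stated in the study's methods (mitochondrial UMIs under 7.5%, total UMIs over 500 and under 50000), 2456 of 2697 lean and 2289 of 2623 obese cells were kept. The study gives the deposited totals as its cells after quality control, so the cells left out here were among those it analysed. A UMI is one counted RNA molecule. The kept cells held 27815785 lean and 28705830 obese UMIs, with medians of 7958 and 9103 per cell, and the libraries shared 2 cell barcodes. Transcripts of CD8 and of CD3 were both present in 95.3% of lean and 95.7% of obese cells, and Ncr1, a defining NK cell gene, was seen in 3 lean cells and 0 obese cells. UMIs of the 4 hemoglobin genes numbered 0 in the lean and 9193 in the obese library. The cells were grouped into 6 clusters without use of any Klr gene. Cluster 0 (464 lean and 701 obese cells) was led by Gzma and Ifit3 and is left unnamed, since 2 clusters of a finer grouping (fine clusters), most of whose cells lay in it, differed, fine cluster 0 (1027 cells) led by Gzma with no interferon marker among its 10 leading genes, and fine cluster 8 (128 cells) with 6. Cluster 1 was proliferating-like (482 and 584), led by Pclaf and Birc5, and cluster 2 was naive- or memory-like (575 and 434), whose leading genes included Tcf7, Satb1 and Lef1. Cluster 3 was effector-like (618 and 309), led by the granzymes Gzmd and Gzmg. It joined most cells of fine clusters 1 and 7. Fine cluster 1 (525 and 189) was led by Gzmd, and fine cluster 7 (91 and 112) by Cxcl13. Cluster 4 (309 and 246) was shallow and unnamed, with a median of 2314 UMIs, and cluster 5 was dendritic-like (8 and 15).

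The NKG2 genes and the 4 Ly49 members, as sums, were highest in different clusters. Levels are given as CPM, the UMIs of a gene per 1000000 UMIs of the cells in question, lean before obese. The 4 NKG2-type genes Klrc1, Klrc2, Klrd1 and Klrk1 together were highest in the effector-like cluster 3, at 1808 (1779 to 1837) and 1139 (1109 to 1170.0) CPM, and lowest in the naive- or memory-like cluster 2, at 553 (531 to 575) and 462 (440.0 to 485) CPM. The range was 3.27-fold in the lean and 2.47-fold in the obese library. Most UMIs of this sum were those of Klrd1, the CD94 gene, with 19687 of 33607 lean and 12203 of 21702 obese UMIs. In cluster 2 Klrd1 made up 1899 of 2493 and 1341 of 1669. The order of this sum from cluster 3 down to clusters 1, 0 and 2 was the same in both libraries, and no neighboring intervals overlapped. Single genes departed from it. In the obese library Klrd1 stood at 371 CPM in cluster 2 and 367 in cluster 0, and Klrk1 was higher in cluster 0 than in cluster 1. Klrc2 in the lean library was, among clusters 0 to 3, highest in cluster 0, ahead of cluster 3. In each of these cases the intervals overlapped. In the shallow cluster 4, lean Klrc2 stood higher, at 71.5 CPM on 62 UMIs. The 4 Ly49 members together were highest in cluster 2, at 114 (105 to 125) and 78.6 (69.7 to 88.3) CPM. Their lowest levels were 6.19 CPM in lean cluster 1 and 2.54 CPM in obese cluster 3, ranges of 18.5-fold and 30.9-fold over clusters 0 to 3. A range of at least 4-fold in both libraries with the same highest cluster was found for 6 of the 10 members, and for 10.2% of all genes. These were Klrc1 and Klrk1 in cluster 3 (2.57% of genes), Klra7, Klra6 and Klra1 in cluster 2 (2.5% of genes) and Klrg1 in cluster 0 (1.27% of genes), and no member was so placed in cluster 1 (3.84% of genes).

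**Figure D1:**
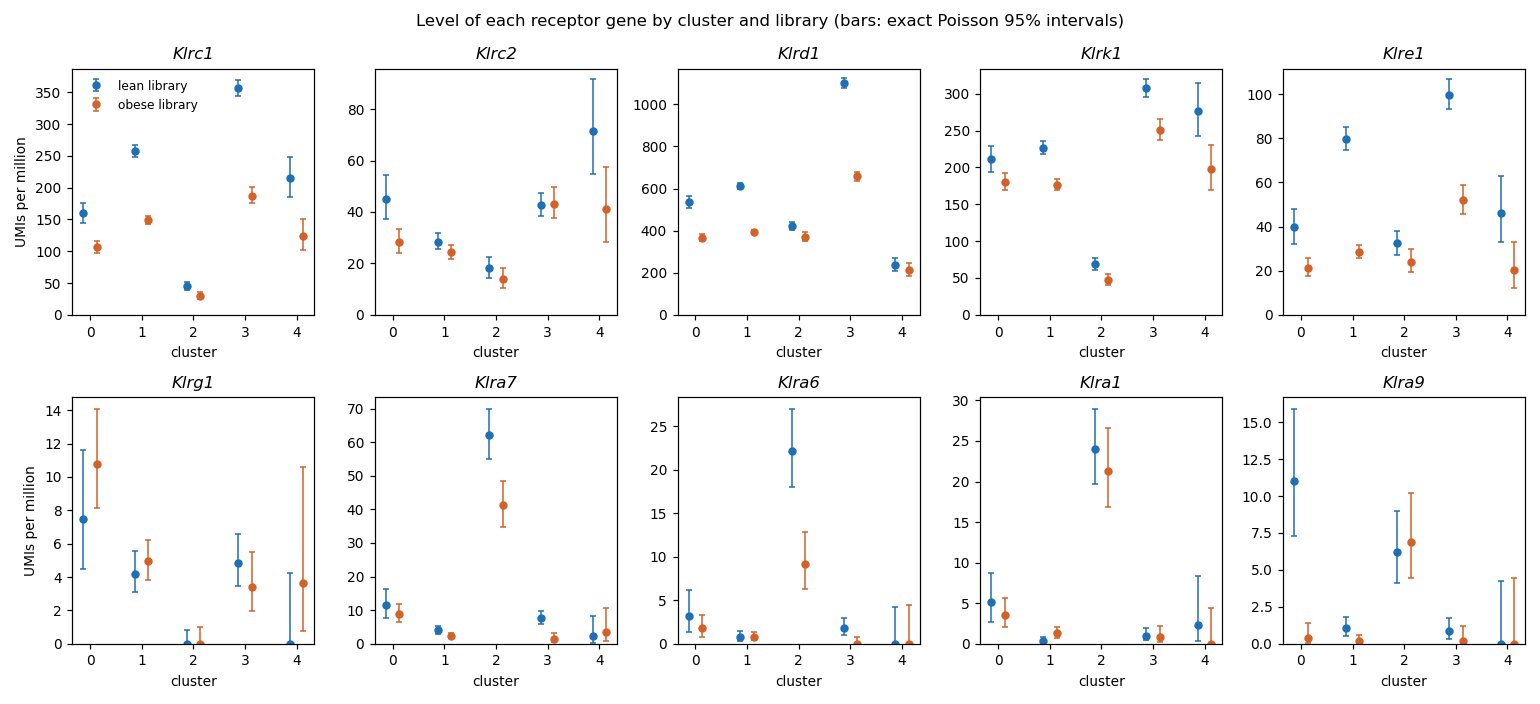
Level of each of the 10 receptor genes in CPM (vertical axis, own scale per panel) in clusters 0 to 4 (horizontal axis) of the lean (blue) and obese (orange) libraries, with bars for exact Poisson 95% intervals. Klrc1 stood highest in cluster 3 and lowest in cluster 2 in both libraries, and Klra7 stood highest in cluster 2 in both, at 62.1 and 41.2 CPM.

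Klrc1, the inhibitory partner of CD94, numbered 6725 and 3760 UMIs in the lean and obese libraries, or 242 (236 to 248) and 131 (127 to 135) CPM. The log2 ratio of obese over lean was -0.88 (-0.94 to -0.83). In sums over a library, fewer cells of a kind and less RNA per cell cannot be told apart. A Klrc1 UMI was found in 56.9% (54.9 to 58.9) and 44.4% (42.4 to 46.5) of cells. With every cell thinned to 2000 UMIs, which left out 126 lean and 112 obese cells that were shallower, the shares were 28.6% (26.8 to 30.5) and 16.9% (15.4 to 18.6). By cluster, the level was 357 and 188 CPM in cluster 3, 258 and 149 in cluster 1, 160.1 and 106 in cluster 0 and 45.0 and 29.6 in cluster 2, with no overlap of neighboring intervals. The obese library was lower in each of these clusters, by log2 ratios of -0.93 (-1.04 to -0.82) in cluster 3, -0.79 (-0.87 to -0.71) in cluster 1, -0.59 (-0.78 to -0.40) in cluster 0 and -0.60 (-0.96 to -0.26) in cluster 2. In fine cluster 2, most of whose cells lay in cluster 2, the ratio was -0.32 (-0.69 to 0.04), an interval that spanned 0.

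Background detection was read in the finer grouping of 13 clusters, where it cannot be told apart from a low true level. Its cluster 6, a naive-like one of 114 lean and 192 obese cells led by Igfbp4, Lef1 and Ccr7 (median 6258.5 and 6767 UMIs), held 4 and 7 Klrc1 UMIs and 8 and 12 Klrk1 UMIs. A Klrc1 UMI was present in 2.63% (0.546 to 7.498) and 3.12% (1.16 to 6.68) of these cells, and after thinning in 0 of 114 lean cells and 5 of 192 obese cells. For the lean count of 0 the limit was set at 3 cells of 114, or 2.63%, which is a fixed limit and not an exact interval. The Klrc1 shares of the whole libraries stood above these.

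Klrd1, the invariant partner, numbered 19687 and 12203 UMIs, or 708 (698 to 718) and 425 (418 to 433) CPM, a log2 ratio of -0.74 (-0.77 to -0.70). As a mean of the ratios within clusters it was -0.45, and -0.39 within the fine clusters, both short of the fold of 0.5 used below. It was detected in 81.2% and 74.3% of cells, and after thinning in 60.04% (58.0 to 62.0) and 44.7% (42.6 to 46.9). Cluster 3 was highest, at 1100.2 (1078 to 1123) and 657 (635 to 681) CPM. In cluster 2 Klrd1 still stood at 421 (402 to 441) and 371 (352 to 392) CPM, and in the naive-like fine cluster at 270.5 (234 to 311) and 313 (284 to 345), where after thinning 41.2% and 41.7% of cells held a UMI. The log2 ratio between libraries was -0.74 (-0.80 to -0.68) in cluster 3, -0.64 (-0.69 to -0.59) in cluster 1, -0.55 (-0.65 to -0.45) in cluster 0 and -0.18 (-0.28 to -0.08) in cluster 2. In fine clusters 1 and 7, most of whose cells lay in cluster 3, it was -0.54 (-0.61 to -0.48) and -1.17 (-1.31 to -1.02). In the naive-like fine cluster it was 0.21 (-0.04 to 0.47), an interval that spanned 0.

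Klrd1 was thus present in cells with few Klrc1 UMIs, and the ratio of both transcripts varied by cluster. Per Klrc1 UMI there were 3.08 (2.96 to 3.21) and 3.50 (3.25 to 3.78) Klrd1 UMIs in cluster 3 and 2.38 (2.28 to 2.48) and 2.63 (2.50 to 2.76) in cluster 1. Cluster 0 gave 3.36 (3.002 to 3.76) and 3.45 (3.13 to 3.80), cluster 2 9.35 (8.09 to 10.9) and 12.5 (10.3 to 15.4), and the naive-like fine cluster 48.5 (18.6 to 179.8) and 58.6 (28.2 to 147). Among clusters 0 to 4, the shallow cluster 4 had the lowest values, 1.10 (0.899 to 1.35) and 1.72 (1.34 to 2.21).

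Klrc1 and Klrd1 were seen in the same cell somewhat more often than their separate detection rates within clusters gave. At 2000 UMIs per cell the numbers were 464 lean cells against 430.0 expected (1.08) and 205 obese cells against 166 expected (1.23). Of lean cells with a Klrc1 UMI 69.6% (65.9 to 73.0) also held Klrd1, compared to 56.2% (53.8 to 58.6) of the others. In obese cells the shares were 55.6% (50.3 to 60.7) and 42.5% (40.2 to 44.9). At full depth 91.5% of lean and 89.0% of obese Klrc1 cells held Klrd1, which left 119 and 112 cells with Klrc1 alone. Within single clusters the thinned ratio of observed to expected cells was 1.051 and 1.18 in cluster 3 and 1.15 and 1.22 in cluster 1. It was 1.08 and 1.30 in cluster 0 and 1.203 and 1.24 in cluster 2. These ratios are given without intervals, and those of cluster 2 rested on only 38 lean and 19 obese thinned Klrc1 cells. Cluster 2 also joined most cells of the naive-like fine cluster, where few cells held Klrc1. Expected numbers here were not taken within fine clusters, and such mixing can raise the ratios of cluster 2. In the reverse direction, 92.4% and 76.8% of Klrd1 cells in cluster 3 held Klrc1 at full depth, but 21.0% and 13.7% of those in cluster 2. With or without Klrd1, 557 of 618 lean and 218 of 309 obese cells of cluster 3 held Klrc1. Of the fine clusters mostly within it, Klrc1 was held by 488 of 525 and 158 of 189 cells of fine cluster 1. In fine cluster 7 it was 68 of 91 and 54 of 112 cells. In cluster 2 it was 109 of 575 and 55 of 434 cells (19.0% and 12.7%). For comparison, the observed to expected ratio of Klrc1 with Cd3e, a T cell receptor component, was 1.03 and 1.0504, and with Cd8a 1.02 and 1.03.

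**Figure D2:**
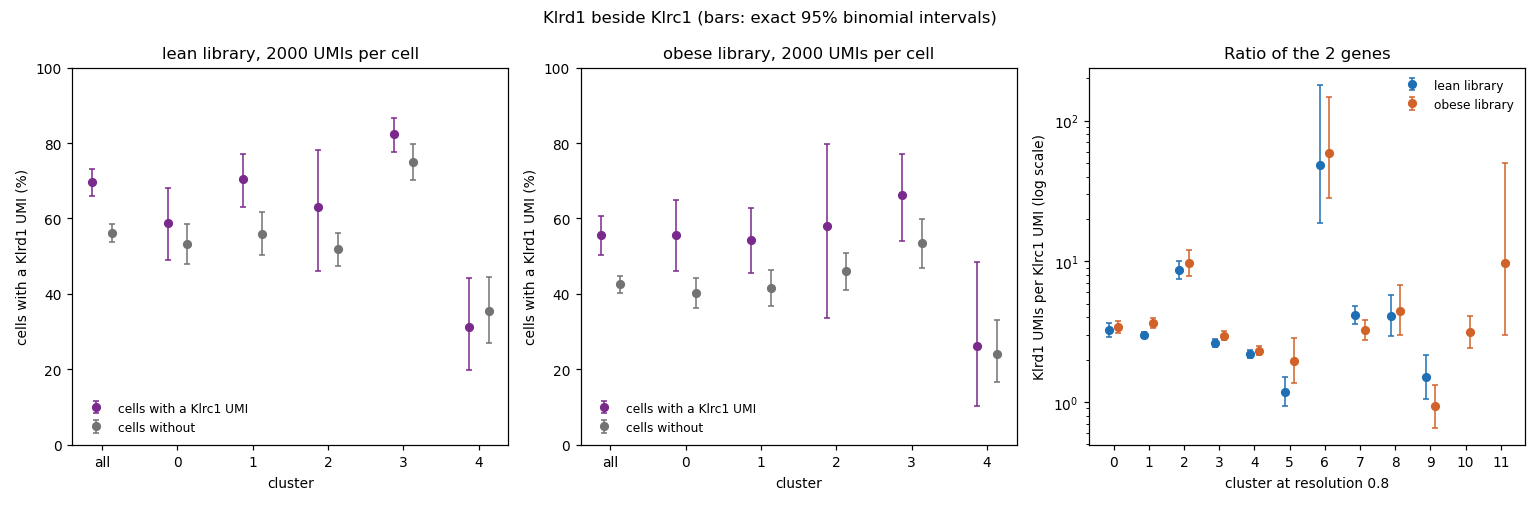
Left and middle, share of cells with a Klrd1 UMI (%) among cells with and without a Klrc1 UMI, over all cells and by cluster, in the lean and obese libraries thinned to 2000 UMIs per cell, with exact binomial 95% intervals. Right, Klrd1 UMIs per Klrc1 UMI (log axis) in fine clusters 0 to 11, where fine cluster 6, the naive-like one, stood at 48.5 and 58.6.

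Among genes detected in at least 100 thinned cells, Klrd1 ranked 880 of 4601 as a partner of Klrc1 in the lean and 272 of 4436 in the obese library. The other members with enough cells ranked higher. The ranks go by observed over expected cells, a ratio with a lower ceiling for a common gene. Of 667 lean and 369 obese thinned Klrc1 cells, 430.0 and 166 were expected to hold Klrd1. The rank of Klrd1 thus does not measure how strongly it pairs with Klrc1. Klrc1 and Klrc2 shared 63 lean cells against 49.6 expected (1.27) and 49 obese cells against 22.7 expected (2.16), and in the obese library Klrc2 was the first-ranked partner of Klrc1. Klrc1 and Klrk1 shared 308 lean cells against 246 expected (1.25) and 134 obese cells against 107 expected (1.25). Klrc1 and Klre1 shared 120 lean cells against 80.0 expected (1.4995), rank 3, and 30 obese cells against 16.6 expected (1.81). A ratio of at least 1.2 was reached by 3 of 4 members with enough cells and 2.74% of genes in the lean library, and by 3 of 3 members and 8.41% of genes in the obese library. The 3′ ends of Klrc1 and Klrc2 are alike. Of the 60-base words in the last 400 bases of the transcripts, 49.2% of those of Klrc1 and 13.2% of those of Klrc2 occurred in other genes, so that the split of UMIs between this pair is uncertain.

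Klrc2, the NKG2C gene, did not follow Klrc1 in every cluster. It numbered 940 and 778 UMIs, or 33.8 (31.7 to 36.0) and 27.1 (25.2 to 29.1) CPM, a log2 ratio of -0.32 (-0.46 to -0.18). In cluster 3, Klrc2 stood at 42.6 (38.3 to 47.3) and 43.2 (37.5 to 49.5) CPM, a log2 ratio of 0.02 (-0.24 to 0.27), and there were 8.38 and 4.34 Klrc1 UMIs per Klrc2 UMI. Cluster 0 was the only one of clusters 0 to 3 with a Klrc2 ratio past -0.5, at 45.1 and 28.3 CPM (-0.67, -1.04 to -0.31).

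Klrk1, the NKG2D gene, numbered 6255 and 4961 UMIs, or 225 (219 to 231) and 173 (168 to 178) CPM, a log2 ratio of -0.38 (-0.43 to -0.33). A UMI was present in 59.5% and 52.3% of cells, and in 30.4% (28.6 to 32.3) and 25.2% (23.4 to 27.1) after thinning. The level was 308 and 251 CPM in cluster 3, 227 and 177 in cluster 1, 211 and 180.3 in cluster 0 and 68.5 and 47.3 in cluster 2, and the intervals of clusters 1 and 0 overlapped in both libraries. Across the 22 pairs of fine cluster and library with at least 50 cells, Klrk1 was the gene most like Klrc1 of 5071 (Pearson r = 0.95 on log2 levels), followed by Dapk2 (0.92), Pglyrp1 (0.92), Serpinb6b (0.91) and Hcls1 (0.91). Klrd1 ranked 1854 by the same measure (0.38) and was most like Cd3d, the CD3 delta chain (0.85). These points share library and depth, and the correlations are descriptions. Hcst, the adaptor of NKG2D, was at 583 and 589 CPM, a log2 ratio of 0.01 (-0.02 to 0.05), and Klrk1 and Hcst shared cells at observed to expected ratios of 1.051 and 1.01. With Klrd1, Klrk1 shared 508 lean cells against 447 expected (1.14) and 328 obese cells against 247 expected (1.33).

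Klre1 was lower in the obese library in each of clusters 0 to 3. It numbered 2038 and 866 UMIs, or 73.3 (70.1 to 76.5) and 30.2 (28.2 to 32.2) CPM, a log2 ratio of -1.28 (-1.40 to -1.16). It was detected in 27.6% and 14.9% of cells, and in 10.3% (9.05 to 11.6) and 4.41% (3.59 to 5.36) after thinning. The log2 ratio was -1.47 (-1.65 to -1.30) in cluster 1, -0.94 (-1.16 to -0.74) in cluster 3, -0.89 (-1.29 to -0.48) in cluster 0 and -0.43 (-0.83 to -0.03) in cluster 2. Its partner gene Klri2 also stood lower, with 206 and 71 UMIs (-1.58, -1.99 to -1.19), whereas Klri1 had 2 and 1. At full depth Klre1 and Klri2 were found together in 75 lean cells against 47.0 expected (1.60) and in 24 obese cells against 8.96 expected (2.68). Klre1 was also the first-ranked partner of Klrd1 in the lean library, with 191 lean cells against 153 expected (1.25), and 0.13% of genes reached a ratio of 1.2 there. In the obese library, where Klre1 had too few cells for a rank, 1.22% of genes did, Klrc1 and Klrk1 among them.

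Klrg1, a gene of late effector cells, was rare and was the only member with a positive ratio. It numbered 107 and 144 UMIs, or 3.85 (3.15 to 4.65) and 5.02 (4.23 to 5.91) CPM, a log2 ratio of 0.38 (0.01 to 0.76). A UMI was seen in 3.42% and 4.11% of cells. Cluster 0 was highest, at 7.46 (4.49 to 11.6) and 10.8 (8.14 to 14.1) CPM, with 19 and 55 UMIs in its fine cluster 0 and 0 and 0 in fine cluster 8. In the lean library the interval of cluster 0 overlapped those of clusters 3 and 1, at 4.81 and 4.18 CPM. Cluster 2 had 0 and 0 Klrg1 UMIs, and 3 UMIs in a library would be 0.665 and 0.830 CPM there. Cluster 0 was 11.2-fold and 13.01-fold above these values, with counting error left aside.

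Over all kept cells, 9 of the 10 members were lower in the obese library and the median log2 ratio was -0.80, compared to 0.04 over all 12511 genes with at least 20 UMIs, a minimum that all 10 members passed. Klrc1, Klrd1, Klre1, Klra7, Klra6 and Klra9 passed the fold rule (a log2 ratio of at least 0.5 with an interval that excluded 0), that is 6 of 10, where 3.81% of all genes did so in this direction. No member passed it as higher (5.41% of all genes). By cluster, 5 of 9 members with enough UMIs passed as lower in cluster 0 (2.6% of genes), 4 of 9 in cluster 1 (3.67%), 4 of 9 in cluster 2 (3.27%) and 4 of 7 in cluster 3 (4.62%). Cluster 2 joined most cells of fine clusters 2 (463 lean, 236 obese) and 6 (114 and 192). Of its 4 members, only Klra6 still passed in fine cluster 2, at -0.84 (-1.45 to -0.26). There Klrc1 was at -0.32 (-0.69 to 0.04), Klrk1 at -0.30 (-0.59 to -0.01) and Klra7 at -0.16 (-0.46 to 0.13). As higher, Klra1 passed in cluster 1 (4.96% of genes), on 4 and 18 UMIs, and no member passed in clusters 0, 2 and 3 (3.94%, 3.88% and 8% of genes). The members share their libraries and are not replicates of one another.

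**Figure D3:**
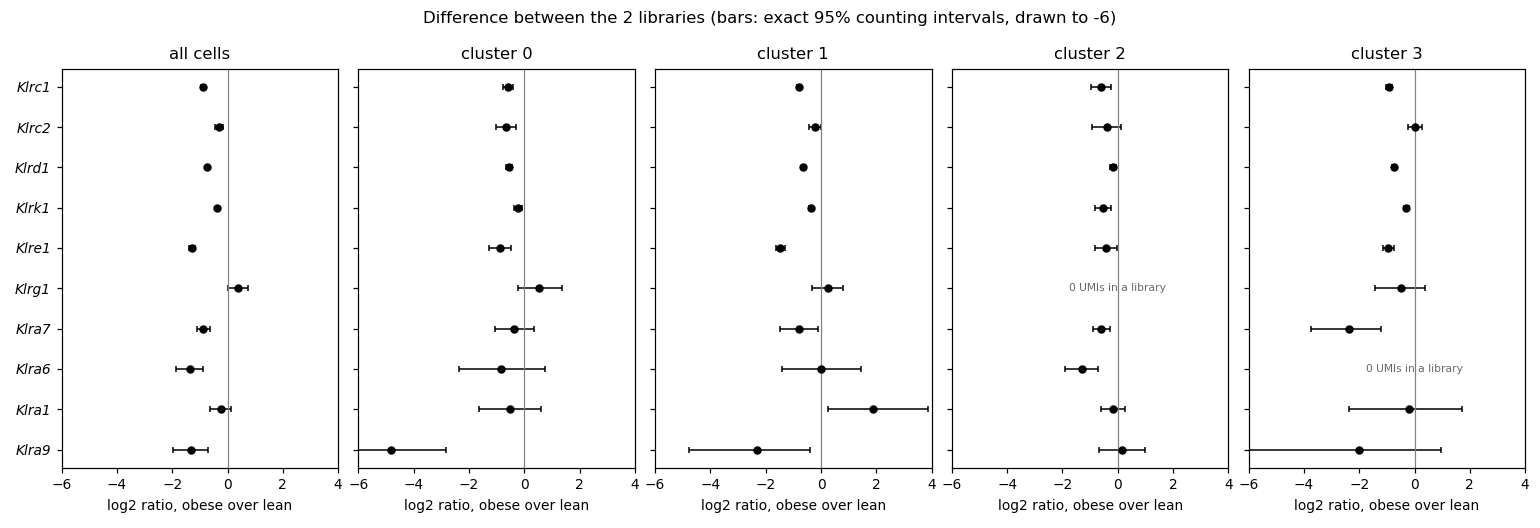
Log2 ratio of obese over lean level (horizontal axis) of the 10 receptor genes (rows) over all cells and in clusters 0 to 3, with exact 95% counting intervals and a line at 0. Over all cells the points lay left of 0 for each gene but Klrg1, and the interval of Klra1 spanned 0.

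Klra7, the Ly49 member seen in most cells, numbered 421 and 237 UMIs in 154 and 78 cells, or 15.1 (13.7 to 16.7) and 8.26 (7.24 to 9.38) CPM, a log2 ratio of -0.87 (-1.11 to -0.64). Klra6 numbered 133 and 53 UMIs (-1.37, -1.86 to -0.90) in 76 and 34 cells. Klra1 numbered 135 and 117 UMIs (-0.25, -0.62 to 0.12) in 65 and 44 cells, its interval spanned 0, and as a mean of the ratios within clusters it was 0.25. A few cells carried much of these counts, since for Klra9, with 75 and 31 UMIs (-1.32, -1.97 to -0.70) in 32 and 15 cells, the 10 richest cells held 61.3% of the lean and 83.9% of the obese UMIs. Together the 4 genes numbered 764 and 438 UMIs, or 27.5 (25.6 to 29.5) and 15.3 (13.9 to 16.8) CPM, with a log2 ratio of -0.85 (-1.02 to -0.68). A UMI of any of them was found in 217 and 111 cells, or 8.84% (7.74 to 10.0) and 4.85% (4.01 to 5.81) of the library, and after thinning in 4.81% (3.97 to 5.76) and 2.11% (1.55 to 2.81). Words of 60 bases shared with other genes made up 21.1% of the 3′ end of Klra7, 30.5% of Klra9, 4.81% of Klra1 and 0.293% of Klra6, so that the split of UMIs among Ly49 genes is uncertain.

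Most UMIs of the 4 Ly49 members lay in the naive- or memory-like cluster 2. Over all Klra genes, which include Klra3 (described below), cluster 2 held 613 of 1651 lean and 386 of 762 obese UMIs, and cluster 3 541 and 41. Cluster 2 held 280 of the lean and 149 of the obese UMIs of Klra7, 100 and 33 of Klra6, and 108 and 77 of Klra1. Klra9 differed, with 28 lean UMIs in cluster 0 and 28 in cluster 2, while the obese library held 2 and 25. The log2 ratio of the 4 genes together was -0.54 (-0.76 to -0.33) in cluster 2. In cluster 3 they numbered 93 and 12 UMIs (-2.14, -3.14 to -1.27), in cluster 0 78 and 74 (-1.07, -1.55 to -0.60), and in cluster 1 71 and 65 (-0.43, -0.94 to 0.07).

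**Figure D4:**
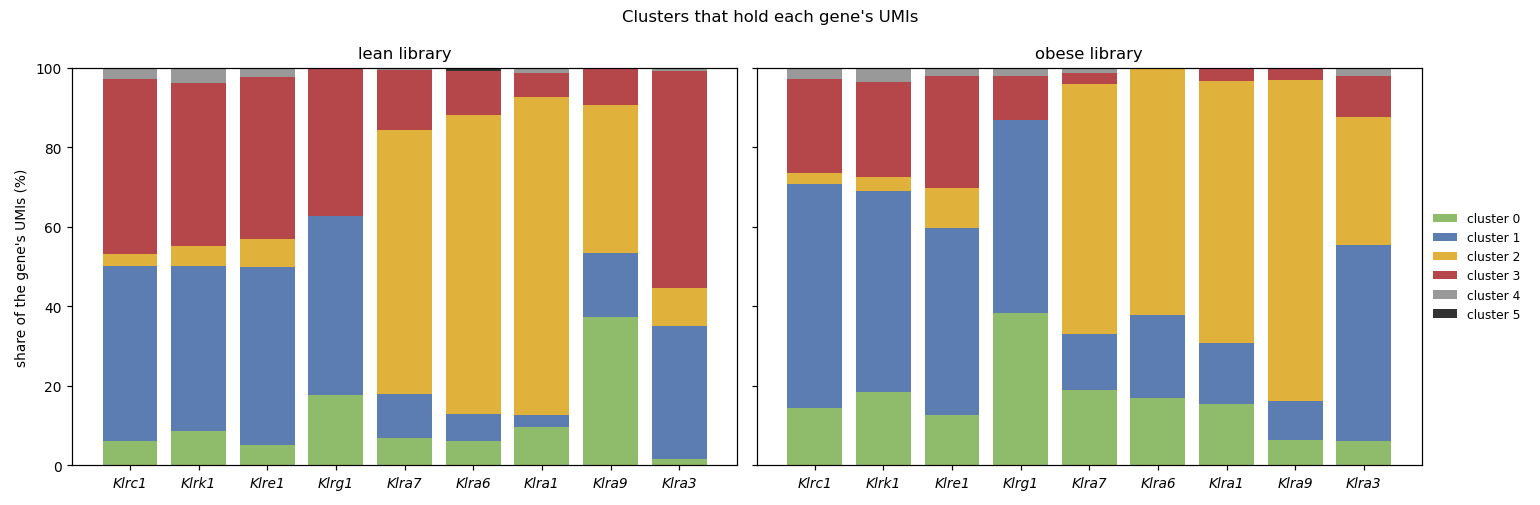
Share of the UMIs (%, stacked bars) of 8 receptor genes and of Klra3 that lay in each of clusters 0 to 5, in the lean and obese libraries. Cluster 2 held most UMIs of Klra7, Klra6 and Klra1 in both libraries, and clusters 1 and 3 together held most of those of Klrc1, Klrk1 and Klre1.

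In the finer grouping, cluster 2 of 13 held 463 lean and 236 obese cells and was led by Klra7, although no Klr gene had entered the grouping. The 4 Ly49 genes stood there at 135 (124 to 147) and 124 (110.2 to 139.8) CPM, a log2 ratio of -0.12 (-0.33 to 0.09), and 30.9% (26.7 to 35.3) and 28.8% (23.1 to 35.0) of its cells held a UMI. The Ly49 sum of this fine cluster thus did not differ between the libraries beyond counting error, although Klra6 within it had a ratio of -0.84 (-1.45 to -0.26). The fine cluster made up 18.9% of lean and 10.3% of obese cells. The sum of the NKG2 genes had a log2 ratio of -0.18 (-0.28 to -0.08) and Klre1 of -0.03 (-0.43 to 0.36) in the same cells. Klrd1 held 1714 of the 2300 lean and 910 of the 1199 obese UMIs of that NKG2 sum. In the naive-like fine cluster the 4 Ly49 genes had 2 and 5 UMIs. Outside fine cluster 2 their sum was lower in the obese library in 4 fine clusters. The log2 ratios were -1.56 (-2.11 to -1.01) in fine cluster 0 and -2.83 (-4.75 to -1.41) in fine cluster 1. They were -2.25 (-3.71 to -0.98) in fine cluster 3 and -2.25 (-3.59 to -1.09) in fine cluster 7. These ratios rested on few cells. A Ly49 UMI was held by 17 lean and 15 obese cells of fine cluster 0 and by 23 and 3 of fine cluster 1. In fine cluster 3 it was 8 and 4 cells, and in fine cluster 7 only 3 and 2. The intervals count UMIs and do not cover the spread between cells. The intervals of the other fine clusters spanned 0.

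Ly49 genes were often found together. Of the cells with any, 133 lean cells held 1 of the 4 genes, 62 held 2, 18 held 3 and 4 held all 4. In the obese library the numbers were 63, 36, 12 and 0. Klra6 and Klra7 shared 46 lean cells against 11.2 expected and 22 obese cells against 2.86 expected, ratios of 4.10 and 7.70. Klra1 and Klra7 shared 41 and 26 cells, at 4.04 and 6.84. Klra1 and Klra6 shared 24 and 14 cells, at 4.47 and 8.05. The part of similar 3′ ends in these shared cells was not tested. Expected numbers were taken within the 6 clusters, and cluster 2 joined cells rich and poor in Ly49 UMIs. In fine cluster 2, 143 of 463 lean and 68 of 236 obese cells held one, but in fine cluster 6 only 2 of 114 and 3 of 192. Such mixing can raise the ratios, to a different extent in each library, and expected numbers within fine clusters were not calculated.

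Cells of fine cluster 2 with and without a Ly49 UMI were compared (143 against 320 lean cells, 68 against 168 obese cells). Levels were taken at 2000 UMIs per cell, but the cells were split at full depth. A deeper cell was thus more likely to count as one with Ly49. Ikzf2, which encodes the transcription factor Helios, stood at 178 (133 to 234) CPM with Ly49 and 12.5 (5.40 to 24.6) without in the lean library, and at 257 (179 to 358) and 59.5 (36.4 to 91.9) in the obese library. Fcer1g, an adaptor chain, was at 126 (88.2 to 174) and 6.25 (1.70 to 16.0) CPM in lean cells and at 51.5 (20.7 to 106) and 2.98 (0.0754 to 16.6) in obese cells. Both were thus higher in the cells with Ly49, with intervals that did not overlap in either library. Among the receptors, Klre1 was at 101 and 25.0 CPM in lean and at 139.7 and 23.8 in obese cells, Klrk1 at 129 and 59.4 and at 132 and 53.6, and Klrc1 at 97.9 and 28.1 and at 58.8 and 32.7. Cd8b1, the CD8 beta chain, was lower with Ly49, at 332 (269 to 406) against 723 (659 to 792) CPM in lean and 287 (204 to 392) against 637 (554 to 728) in obese cells. Cd8a was at 175 and 284 in lean and 169 and 274 in obese cells. Cd3d was at 1105 and 1197 in lean and 993 and 1086 in obese cells, with overlapping intervals. Cells of 1 library are not replicates, and these values are descriptions.

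**Figure D5:**
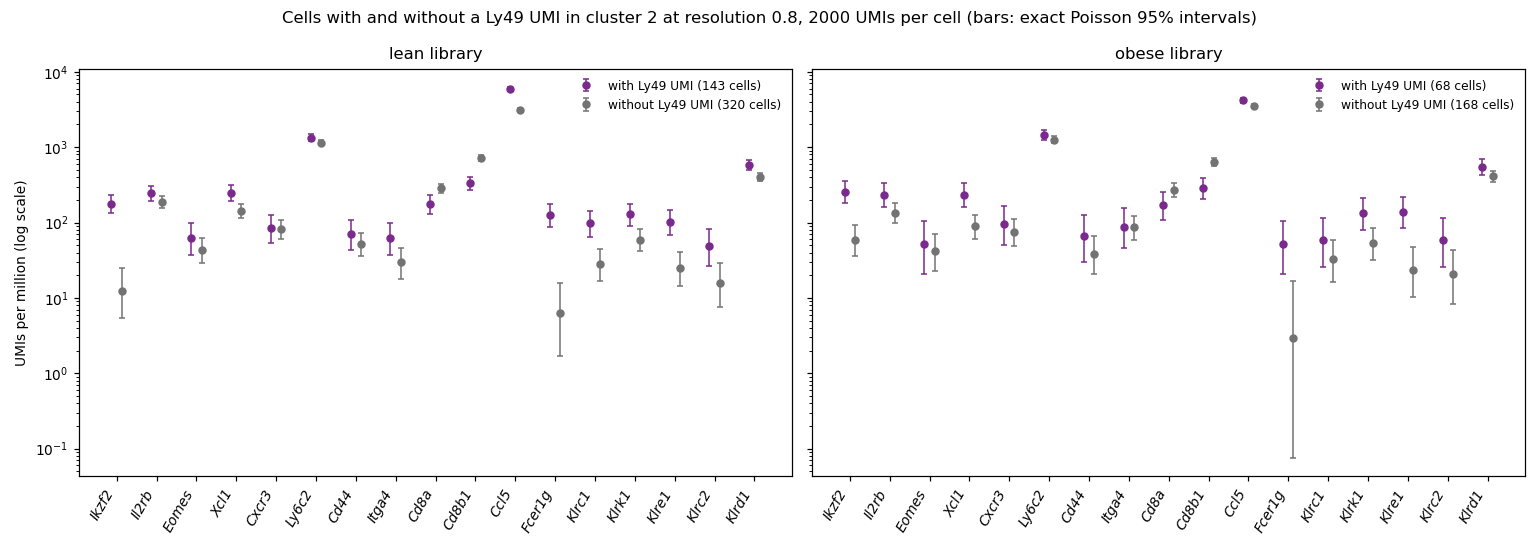
Level in CPM (log axis) of receptor and marker genes in cells of fine cluster 2 with and without a Ly49 UMI, in the lean and obese libraries thinned to 2000 UMIs per cell, with exact Poisson 95% intervals. Cells were split by their Ly49 UMIs at full depth. In both libraries Ikzf2, Fcer1g, Klre1 and Klrk1 stood higher and Cd8a and Cd8b1 lower in cells with a Ly49 UMI, although the obese intervals of Klrk1 and Cd8a overlapped.

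Of cells with a Ly49 UMI, 88.9% in the lean and 90.1% in the obese library held transcripts of both CD8 and CD3. CD3 transcripts, with or without CD8, were counted in 217 of 217 lean and 110 of 111 obese Ly49 cells. The 3 lean cells with Ncr1 all held a Ly49 UMI, Klrb1c was seen in 21 and 7 of the Ly49 cells, and Trdc, of the gamma-delta receptor, in 4 and 4. Of the NK cell list, 2 of 5 genes with enough UMIs were lower in the obese library, Klrb1c with 69 and 25 UMIs and Fcer1g with 812 and 547, and Ncr1 had 11 and 0. Of the other three, none passed the fold rule, and Tyrobp had 499 and 664 UMIs (0.37, 0.20 to 0.54), Fcgr3 17 and 23 (0.39, -0.58 to 1.39) and Cd160 2745 and 2418 (-0.23, -0.31 to -0.15). The 6 genes of the list summed to 149 and 128 CPM. Of gamma-delta genes 2 of 4 were higher, among them Trdc with 44 and 86 UMIs, and the list summed to 30.6 and 33.4 CPM. For comparison, 3.81% of all genes passed the fold rule as lower and 5.41% as higher. The part of NK or gamma-delta cells in the receptor differences was not tested.

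Of the other 16 features with a Klr symbol, 11 had enough UMIs, of which 5 were lower and 2 higher in the obese library (3.81% and 5.41% of all genes). Some rested on few cells, since the 28 and 0 UMIs of Klra4 came from 5 and 0 cells and the 47 and 11 of Klra5 from 7 and 4. Klra3 (Ly49C) was the one above 10 CPM, with 784 and 275 UMIs (-1.56, -1.76 to -1.36). It had more UMIs than any of the 4 Ly49 members, and they were spread differently. In the lean library 428 lay in cluster 3 (51.5 CPM) and 74 in cluster 2 (16.4 CPM), and in the obese library 28 (5.93 CPM) and 89 (24.6 CPM). Words shared with other genes made up 24.8% of its 3′ end. With Klra7 it shared 20 lean cells against 12.5 expected and 11 obese cells against 4.26 expected. The activating receptors Klra4 and Klra8 were seen in 5 and 4 lean cells and in 0 and 2 obese cells.

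Most signaling partners and ligands missed the fold rule, which 3.81% of all genes passed as lower and 5.41% as higher. Of 9 adaptors and phosphatases 1 was lower, Ptpn6 (SHP-1, which docks on inhibitory receptors), at 174 and 119 CPM (-0.56, -0.62 to -0.49), and the median of the list was 0.01. H2-T23, the ligand gene of the CD94 pairs, was at 482 and 399.7 CPM (-0.27, -0.31 to -0.23) in these cells. Of 6 ligand genes with enough UMIs 1 was higher, Cdh1, a ligand of KLRG1, with 44 and 106 UMIs. Of 9 genes of Ly49 CD8 or virtual memory cells, 2 were higher, Eomes (0.79, 0.67 to 0.92) and Cxcr3 (0.75, 0.65 to 0.85), whereas Ikzf2 was at 54.6 and 63.1 CPM (0.21, 0.11 to 0.31).

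Several cytotoxic genes stood lower in the same library as the NKG2 genes. The fold rule was passed as lower by 3.81% and as higher by 5.41% of all genes. Of 10 effector and terminal genes 3 were lower, Gzmb (1311 and 616 CPM, -1.09), Prf1 (417 and 171, -1.29) and Cx3cr1 (34.0 and 20.1, -0.75). Of 10 residency and checkpoint genes 3 were lower, Lag3 (-0.89), Havcr2 (-0.85) and Tigit (-0.65), and Itgae was higher (0.77, on 72 and 127 UMIs). Of the effector-like markers 8 of 10 were lower, with a median of -1.19. Gzmb and Prf1 are counted both there and among the effector and terminal genes. No gene of the list of CD3, CD8 and T cell receptor chains passed the fold rule (6 genes, median -0.17). Within clusters and at 2000 UMIs, Klrc1 was seen with Gzma in 53 lean cells against 34.4 expected and in 31 obese cells against 22.2 expected, and with Eomes in 33 against 39.1 and 27 against 38.1. Over all thinned cells of a library, Havcr2, the checkpoint receptor TIM-3, was seen in 23.7% of lean Klrc1 cells and 9.44% of the others. In the obese library the shares were 11.4% and 6.91%. Within clusters Klrc1 and Havcr2 shared 158 lean cells against 127 expected (1.25) and 42 obese cells against 35.7 expected (1.18). The other residency and checkpoint genes seen in at least 100 thinned cells had lower ratios. They were Pdcd1 (1.10 and 1.14), Lag3 (1.02 and 1.15), Cxcr6 (1.11 and 1.08), Tox (1.03 and 0.96) and Cd69 (1.07 and 0.87). Of the list's genes in fewer cells, Itga1 stood above Havcr2, at 1.40 and 1.44 (89 and 80 cells). Itgae stood below, at 0.36 and 0.22 (25 and 32 cells). A ratio with Klrc1 of at least 1.2 was reached by 2.74% of genes in the lean and 8.41% in the obese library. The part of the cytotoxic state in the NKG2 difference was not tested.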

How the data were processed

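CD8+ TIL were measured as 1 lean and 1 obese droplet library of mouse cells. The deposited matrices hold raw counts of UMIs per gene and cell; the authors made them with Cell Ranger 6.0.2 on mm10, per the submitters' processing notes. Cells with under 7.5% mitochondrial UMIs and over 500 and under 50000 UMIs were kept. Clusters came from Seurat 5.3.0 (R 4.3.3; 2000 variable genes without Klr genes, 20 principal components, 20 neighbors, the lowest resolution giving 6 clusters, and resolution 0.8 for 13), and are rebuilt, not the authors' own. Names were given from marker lists. Doublets marked by Scrublet (scanpy 1.11.5) numbered 2 lean and 0 obese, and none was removed in the main values. Whether it missed doublets was not tested.

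UMIs were summed per library and cluster and given per 1000000 total UMIs (CPM). Intervals are exact (Poisson for levels, Clopper-Pearson for shares, conditional binomial for ratios) at 95% and cover counting error only. Cells were thinned to 2000 UMIs for shares at equal depth, which 2330 lean and 2177 obese cells reached. Expected numbers of cells with 2 genes assumed independence within clusters (pairs of Ly49 genes at full depth). A gene passed the fold rule with at least 20 UMIs, a log2 ratio of at least 0.5 and an interval without 0. The genes named were the 10 members, other Klr genes of at least 10 CPM, listed companions and the 5 genes most alike in Pearson r of log2(CPM + 1). Other Klr genes, partners and companions named beyond these were chosen after their values were seen. The members and lists were chosen with earlier results of these data known. Positions are from GENCODE vM21, which held 32158 of the 32285 identifiers; sequence matches used Biopython 1.88. Calculations were tested on simulated data. Alternatives included TMM scaling (edgeR 4.0.16), other filters, depths and resolutions. A marker gene is not reported here.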

Additional observations from a re-analysis of the deposited data

Results flagged for a closer look

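Klra3, a Ly49 gene outside the 10 members, had ratios of opposite sign by cluster. Its log2 ratio of obese over lean stood at 0.59 in cluster 2 (naive- or memory-like), on 74 lean and 89 obese UMIs, but -1.27 in the proliferating-like cluster 1 (263 and 135 UMIs) and -3.12 in the effector-like cluster 3 (428 and 28 UMIs). Since each group is 1 library, that difference by cluster was not tested.

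Receptor UMIs were also present in the cells left out by the filters. The 4 NKG2 genes stood there at 1127 CPM in the lean and 661.4 in the obese library, and the 4 Ly49 genes at 1.81 in the lean and 2.36 in the obese library, on 11 and 24 UMIs.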

How the results depend on the processing

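No direction of the summed or median ratios turned under any setting. The count of members lower in the obese library by the fold rule was 6 to 8 over 10 settings. The ratio of the NKG2 sum (-0.68) moved to -0.72 with TMM scaling, -0.64 at 2000 UMIs, -0.71 with all deposited cells, and to -0.50 as the mean over clusters and -0.41 over those at resolution 0.8. That of the Ly49 sum (-0.85) moved to -1.07 at 2000 UMIs, -1.62 at 1000 UMIs, -1.09 without the 10 cells per library richest in the gene and -1.16 with all Klra genes. The median of the members (-0.80) moved to -1.13 at 1000 UMIs, -0.57 as the mean over clusters and -0.51 at resolution 0.8. Lean pairing of Klrc1 with Klrd1 moved to 1.16 with expected numbers that ignored clusters. At resolution 0.8 the log2 range across clusters moved for the NKG2 sum to 2.69 in lean and 1.96 in obese cells, and for the Ly49 sum to 7.05 in obese cells. Of 130 values of single members over the settings 100 stayed within their intervals and 30 moved. Klrd1 moved from -0.74 to -0.45 as the mean over clusters and -0.39 over those at resolution 0.8, under the fold of 0.5, while Klrc2 passed it at -0.54 as the mean of single cells and at -0.74 (-1.22 to -0.27) at 1000 UMIs. Klra6 ran from -2.53 to -0.71, Klra9 from -2.58 to -1.20 and Klra7 from -1.39 to -0.69. Klrg1 stayed positive in all 13 (0.09 to 1.81), and Klra1 was negative in 11 of 13 (-1.74 to 0.25). The means over clusters at resolution 0.8, the values without clusters 4 and 5, and the count of members under each setting were added after seeing the data. No paired analysis was possible because each group had 1 library, and none could be left out. Depth limits the Ly49 genes and Klrg1 most.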
